A study of Mus musculus with 12 samples.

Results

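The 10 genes described here make and load MHC class I molecules: H2-K1, H2-D1, B2m, Tap1, Tap2, Tapbp, Psmb8, Psmb9, Psmb10 and Nlrc5. They were chosen by name, and every probe set of the array assigned to 1 of them was read, which gave 27 of 45101 probe sets. All 10 genes passed the filter on dim probe sets and are 10 of the 15493 genes tested. The study compared tumours grown from the mouse lung adenocarcinoma line 344SQ, either parental (Sen) or resistant to anti-PD-1 (Res), in female mice of the strain 129sv/ev, of unstated age. Cells were placed under the skin of the right flank, antibody was given at 10 mg/kg on days 4 and 7, and tumours were taken on day 11. The 4 groups were parental tumours with control IgG (Sen+IgG), parental tumours with anti-PD-1 (Sen+PD1), resistant tumours with control IgG (Res+IgG) and resistant tumours with anti-PD-1 (Res+PD1), with 3 arrays each. All animals therefore carried a transplanted tumour and received an antibody. Each group had 5 mice, and the labels do not tie arrays to mice: all p-values below rest on the spread between arrays of a group, part of which may be technical. The labels do not say how the resistant cells were derived or whether they are 1 clone.

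MHC class I molecules show peptides from inside a cell to CD8 T cells. The proteasome cuts proteins into peptides, and interferon gamma makes cells swap 3 catalytic subunits for the immunoproteasome subunits Psmb8, Psmb9 and Psmb10. The transporter made of Tap1 and Tap2 carries the peptides into the endoplasmic reticulum, where tapasin (Tapbp) holds an empty class I molecule beside it. A class I molecule is a heavy chain, here H2-K1 or H2-D1, with beta-2 microglobulin (B2m), without which few heavy chains reach the surface. Nlrc5 is the transactivator that acts at class I promoters. Loss of class I presentation is a known way for tumour cells to escape T cells.

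The promoters of the 3 genes that make the class I molecule itself are shown because they share short stretches in one layout, and the promoter of Tap1 because it is also that of Psmb9. RefSeq windows of GRCm38.p6, from 250 bases before to 50 bases after the start, were found for 8 of the 10 genes, and not for Tap2 and Nlrc5. They are read from the reference strain, not from these tumours, and the motifs were chosen after the sequences had been read. Capitals mark GGGGATTCCCC (the kB site of class I genes, as read from the H2-K1 window), AANNGAAA on either strand (the core of an interferon response element) and the pair TGACG and ATTGG separated by 20 bases, which are the outer letters of the X2 and Y boxes.
H2-K1 at chr17:34000298-34000597, minus strand: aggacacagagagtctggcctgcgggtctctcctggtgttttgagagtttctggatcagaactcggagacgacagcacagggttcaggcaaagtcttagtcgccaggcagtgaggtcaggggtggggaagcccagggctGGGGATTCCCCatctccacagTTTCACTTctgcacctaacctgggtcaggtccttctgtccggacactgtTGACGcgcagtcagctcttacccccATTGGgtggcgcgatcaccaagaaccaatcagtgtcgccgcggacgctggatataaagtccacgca
H2-D1 at chr17:35262844-35263143, plus strand: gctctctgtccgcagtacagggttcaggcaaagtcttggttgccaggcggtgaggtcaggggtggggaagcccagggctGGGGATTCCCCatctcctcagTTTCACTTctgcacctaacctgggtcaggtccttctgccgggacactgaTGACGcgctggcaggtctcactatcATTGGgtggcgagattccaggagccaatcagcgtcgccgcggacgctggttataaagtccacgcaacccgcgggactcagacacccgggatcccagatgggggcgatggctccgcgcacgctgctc
B2m at chr2:122147437-122147736, plus strand: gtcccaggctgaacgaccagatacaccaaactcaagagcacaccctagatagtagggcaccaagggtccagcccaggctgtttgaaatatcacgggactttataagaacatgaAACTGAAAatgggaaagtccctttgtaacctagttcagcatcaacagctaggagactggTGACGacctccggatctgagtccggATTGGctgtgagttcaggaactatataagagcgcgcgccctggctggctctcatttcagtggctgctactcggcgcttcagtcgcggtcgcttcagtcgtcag
Tap1 at chr17:34187306-34187605, plus strand: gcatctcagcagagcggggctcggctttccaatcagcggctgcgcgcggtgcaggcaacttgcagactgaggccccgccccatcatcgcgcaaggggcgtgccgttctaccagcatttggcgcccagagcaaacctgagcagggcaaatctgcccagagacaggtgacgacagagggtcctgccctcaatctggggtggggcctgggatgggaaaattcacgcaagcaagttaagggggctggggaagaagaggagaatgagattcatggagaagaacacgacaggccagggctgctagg
The H2-K1 window shown is 1 of 2 in the table. The kB letters stood in the windows of H2-K1 and H2-D1, and in 0.0304% of all 32841 windows. The interferon response core stood in those of H2-K1, H2-D1 and B2m, but also in 23.9% of all windows. The TGACG and ATTGG pair stood in the same 3 members and in 0.0944% of all windows. Both the pair and the core stood in the windows of 6 genes, which were B2m, H2-D1, H2-K1, H2-M3, Nrarp and Trim26. TTCNNNGAA, the palindrome bound by STAT factors, was found for Psmb8 alone among the 8 members, and in 8.3% of all windows. The Tap1 window has no capitals because it held neither the kB letters nor the interferon core, nor the TGACG and ATTGG pair at this spacing. It overlaps that of Psmb9, on the opposite strand, over 275 bases, with 225 bases between the 2 starts. Psmb9, Tap1, Psmb8 and Tap2 follow each other as protein-coding genes on chromosome 17, which carries 7 of the 10 genes. B2m is on chromosome 2, and Psmb10 and Nlrc5 are on chromosome 8. These matches describe letters in the reference, and no binding was measured here.

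Levels are the deposited log2 values, so a difference of 1 is a 2-fold change; they rank arrays within a gene and do not rank genes. The array medians ran from 4.75 to 4.89, no 2 arrays held identical values, and the lowest correlation between arrays over all probe sets was 0.959. Sen+IgG replicate 1 and Sen+PD1 replicate 3 lay farthest from the other arrays on the first 2 principal components, at distances of 44 and 64.7. Sen+PD1 replicate 2 came close to the first, at 39.8. Parental arrays had distances of 29.5 to 64.7 and resistant ones of 12.5 to 29.3. Sen+IgG replicate 1 and Sen+PD1 replicate 3 are called the 2 arrays that stand apart. Where the number of the 10 genes called changes without them, it is given both ways. The epithelial markers were high on all 12 arrays, with a mean log2 level of 10.16 to 11.35. Markers of skeletal muscle averaged from 6.49 on Res+PD1 replicate 1 to 12.28 on Sen+PD1 replicate 3. The RNA came from whole tumours, in which fewer cells of a type and less RNA per cell cannot be told apart.

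The class I genes were lower in resistant than in parental tumours. Under anti-PD-1, 9 of the 10 genes fell in Res+PD1 against Sen+PD1, by 1.10 (B2m) to 2.65 (Tap1) on the log2 scale, which is 2.15-fold to 6.28-fold lower. The 10th, Psmb10, was 0.91 lower and did not pass the test. Of all genes tested, 11.9% were called lower there. Leaving out Sen+PD1 replicate 2 or 3, or Res+PD1 replicate 1 or 2, cut the 9 to 2. Under control IgG all 10 were also lower in the resistant line, and 0 passed, where 7.31% of all genes were called lower. In that comparison 1 parental array, Sen+IgG replicate 1, was as low as the resistant ones. Within a line, the 10 genes lay higher with anti-PD-1 than with IgG, and none of these differences passed the test.

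H2-K1 and H2-D1 encode the classical class I heavy chains. The H2-K1 log2 level was 10.35, 12.28 and 12.33 on the 3 Sen+IgG arrays, 12.51, 12.86 and 12.99 with Sen+PD1, 10.85, 10.38 and 11.35 with Res+IgG and 11.21, 11.08 and 11.98 with Res+PD1. The H2-D1 log2 level was 10.69, 12.16 and 12.26 (Sen+IgG), 12.38, 12.66 and 12.72 (Sen+PD1), 10.90, 10.87 and 11.35 (Res+IgG) and 11.22, 11.22 and 11.83 (Res+PD1). For both genes the lowest array of all 12 was a parental one, Sen+IgG replicate 1, while the other 5 parental arrays lay above all 6 resistant arrays. With anti-PD-1, H2-K1 was 1.36 ± 0.47 (SE) lower in resistant tumours on the log2 scale (limma adjusted p = 0.0456) and H2-D1 1.16 ± 0.35 lower (adjusted p = 0.027). The call of H2-K1 was near the threshold and was lost on leaving out any of 8 arrays; its difference then ran from -1.64 to -1.19 over all 12 omissions.

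B2m, the light chain that all these heavy chains need, had log2 levels of 11.35, 12.58 and 12.59 (Sen+IgG), 12.42, 12.79 and 12.75 (Sen+PD1), 11.31, 10.85 and 11.68 (Res+IgG) and 11.37, 11.24 and 12.04 (Res+PD1). The other 5 parental arrays were again above every resistant array, and Sen+IgG replicate 1 lay among the resistant ones. Under anti-PD-1, B2m was 1.10 ± 0.34 lower in resistant tumours (adjusted p = 0.0275). Its spread over the 12 arrays, 1.94, was narrower than that of every member but Psmb10.

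The peptide transporter genes moved over a wider range. The Tap1 log2 level was 6.65, 8.93 and 9.0 (Sen+IgG), 8.87, 9.92 and 10.20 (Sen+PD1), 6.02, 5.06 and 7.49 (Res+IgG) and 6.50, 6.35 and 8.19 (Res+PD1). Tap2, its partner, read 5.34, 6.86 and 6.99 (Sen+IgG), 7.22, 7.88 and 8.24 (Sen+PD1), 4.94, 5.39 and 5.60 (Res+IgG) and 5.40, 5.72 and 6.48 (Res+PD1). In both genes the highest resistant array was Res+PD1 replicate 3, and it stayed below the 5 upper parental arrays. The difference under anti-PD-1 was -2.65 ± 0.77 for Tap1 (adjusted p = 0.0218) and -1.91 ± 0.44 for Tap2 (adjusted p = 0.00681). Tap1 is measured well by 1 probe set; the mean over all 4 of its probe sets, of which 2 were dim on all arrays, gave -0.63 (adjusted p = 0.047). Tapbp, the tapasin that bridges transporter and class I molecule, had levels of 9.05, 10.31 and 10.34 (Sen+IgG), 10.44, 10.89 and 11.05 (Sen+PD1), 8.65, 8.49 and 9.39 (Res+IgG) and 8.85, 8.74 and 9.65 (Res+PD1). It fell by 1.71 ± 0.37 under anti-PD-1, with the lowest adjusted p of the 10 genes, 0.00546. Tap2 and Tapbp were the members still called in this comparison under all 23 alternative settings.

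**Figure D1:**
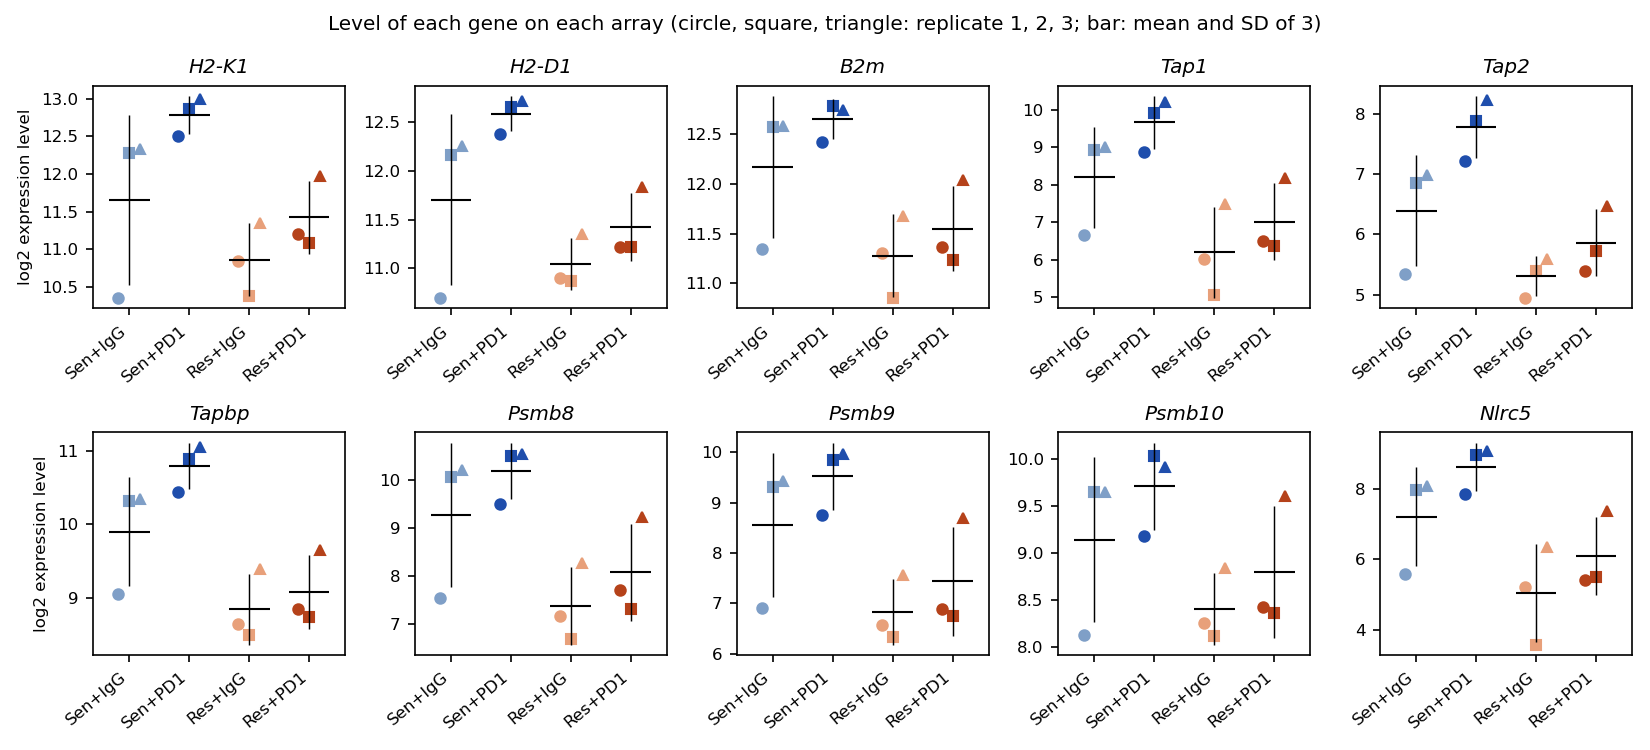
Each panel plots the log2 level of 1 gene (vertical axis) on the 12 arrays by group (horizontal axis), with the mean and SD of the 3 arrays of a group. In 9 of the 10 panels the 6 resistant arrays lie below 5 parental arrays, and the circle of Sen+IgG, replicate 1, lies among the resistant values or, for H2-K1 and H2-D1, below them.

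Of the 3 immunoproteasome subunits, Psmb8 and Psmb9 fell as well and Psmb10 did not pass the test. Psmb8, which replaces the chymotrypsin-like subunit Psmb5, had log2 levels of 7.54, 10.06 and 10.21 (Sen+IgG), 9.50, 10.50 and 10.54 (Sen+PD1), 7.17, 6.69 and 8.26 (Res+IgG) and 7.71, 7.31 and 9.22 (Res+PD1). Psmb9, which replaces Psmb6, had 6.90, 9.31 and 9.44 (Sen+IgG), 8.76, 9.85 and 9.97 (Sen+PD1), 6.58, 6.34 and 7.57 (Res+IgG) and 6.88, 6.76 and 8.69 (Res+PD1). In both genes Res+PD1 replicate 3 lay just below Sen+PD1 replicate 1, the lowest array of its group. Their differences under anti-PD-1 were -2.10 ± 0.72 (adjusted p = 0.0441) and -2.08 ± 0.71 (adjusted p = 0.042). Psmb10, which replaces Psmb7, had 8.13, 9.65 and 9.65 (Sen+IgG), 9.18, 10.04 and 9.92 (Sen+PD1), 8.26, 8.12 and 8.84 (Res+IgG) and 8.43, 8.36 and 9.61 (Res+PD1). It was the member in which a resistant array, Res+PD1 replicate 3, lay above a parental array other than Sen+IgG replicate 1. Its difference under anti-PD-1 was -0.91, with a 95% interval from -1.90 to 0.073 (adjusted p = 0.141).

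Nlrc5, the class I transactivator, had the widest range of the 10 genes, 5.49 on the log2 scale, wider than that of 99.8% of the genes tested. Its levels were 5.59, 7.98 and 8.07 (Sen+IgG), 7.84, 8.97 and 9.07 (Sen+PD1), 5.21, 3.58 and 6.36 (Res+IgG) and 5.43, 5.50 and 7.36 (Res+PD1). The value on Res+IgG replicate 2 lay close to the dim limit of 3.32. Under anti-PD-1 Nlrc5 was 2.53 ± 0.83 lower in resistant tumours (adjusted p = 0.0362), a 5.78-fold difference. Without Sen+IgG replicate 1 and Sen+PD1 replicate 3 the difference was -2.31 ± 0.80 and no longer passed (adjusted p = 0.0538).

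Read across the genes, 9 of 10 fell in Res+PD1 against Sen+PD1, where 11.9% of all genes tested were called lower. The median difference was -1.81 over the 10 genes and 0.073 over all genes. In the same 9 genes the 3 arrays of each group did not overlap, against 15.8% of all genes with all resistant arrays lower. The count of 9 was lower without any of 8 arrays. Without Sen+PD1 replicate 2, Sen+PD1 replicate 3, Res+PD1 replicate 1 or Res+PD1 replicate 2 in turn, 2 members passed, Tap2 and Tapbp, where 9.56%, 10.3%, 8.2% and 8.4% of all genes were called lower. Without Res+IgG replicate 1 or 2, which enter through the shared spread, 6 passed (10.8% and 11.5% of all genes), and without Sen+PD1 replicate 1 or Res+IgG replicate 3, 8 did (12.1% and 11.6%). All 10 stayed below 0 in each of these. A variance prior with trend and robust estimation called 5, with 11.6% of all genes called lower. Without the 2 arrays that stand apart 8 members passed, where 11.8% of all genes were called lower.

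With the 2 antibodies averaged, 6 arrays against 6, the same 9 genes fell and the background was 15% of genes called lower. The difference was -2.35 ± 0.58 for Nlrc5 (adjusted p = 0.0087), -2.33 ± 0.54 for Tap1 (0.00617), -2.0 ± 0.51 for Psmb8 (0.00983) and -1.90 ± 0.50 for Psmb9 (0.0114). It was -1.50 ± 0.31 for Tap2 (adjusted p = 0.00297), -1.38 ± 0.26 for Tapbp (0.00194), -1.08 ± 0.33 for H2-K1 (0.0247), -1.0 ± 0.24 for B2m (0.00695) and -0.91 ± 0.25 for H2-D1 (0.014). Psmb10 lay just outside the threshold at -0.83 ± 0.32 (adjusted p = 0.0583) and passed without Sen+IgG replicate 1, at -1.08 ± 0.26 (0.00848). The median was -1.44, against 0.077 over all genes. Between 8 and 10 members passed when each array was left out in turn. Without the 2 arrays that stand apart 10 passed, where 15.9% of all genes were called lower.

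Under control IgG the same direction was measured with less certainty. In Res+IgG against Sen+IgG all 10 genes were lower, with a median of -1.07 against 0.067 over all genes, yet limma called 0 of them at an adjusted p under 0.05, where 7.31% of genes were called lower. In all, 7 of the 10, those other than H2-K1, H2-D1 and Psmb10, had an unadjusted p under 0.05, against 13.4% of all genes in that direction. The differences ran from -0.66 ± 0.35 for H2-D1 to -2.16 ± 0.83 for Nlrc5, with adjusted p from 0.0761 to 0.278. The count moved with the arrays used. Without Sen+IgG replicate 1, 9 members passed, where 5.45% of genes did, and the median was -1.55; Psmb10 was the exception at -1.24 (adjusted p = 0.0639). Weighting arrays by their fit called all 10, with 12.5% of all genes called lower, and leaving out Res+IgG replicate 3 called 1, Tap1, with 5.71%. No reason for removing Sen+IgG replicate 1 is given in the labels.

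**Figure D2:**
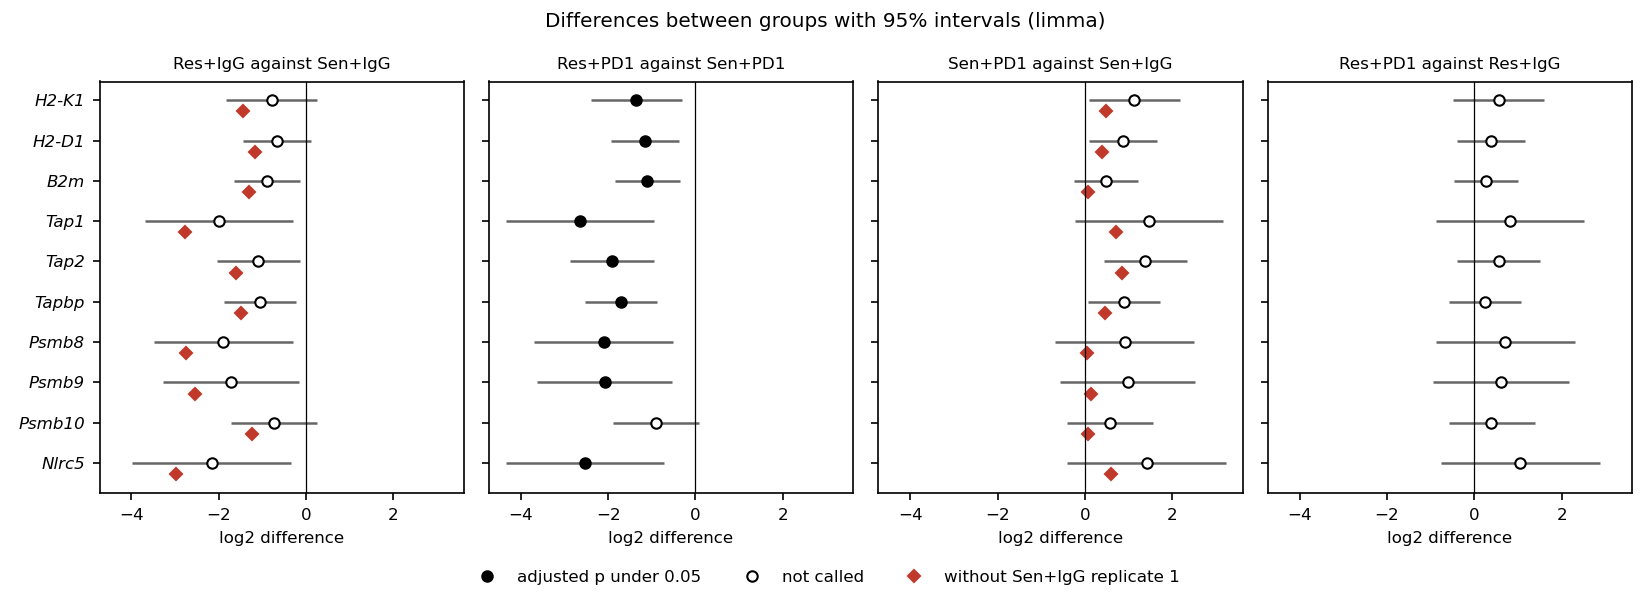
Points give the log2 difference of each gene (horizontal axis) in 4 comparisons, with 95% intervals from limma; filled points have an adjusted p under 0.05, and red diamonds give the estimate without Sen+IgG replicate 1. All 10 points lie below 0 in both line comparisons and above 0 in both antibody comparisons, and the diamonds are farther below 0 under IgG and nearer to 0 for anti-PD-1 in the parental line.

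In parental tumours anti-PD-1 went with higher values of all 10 genes that did not pass the test. The differences of Sen+PD1 against Sen+IgG ran from 0.48 ± 0.34 (B2m) to 1.47 ± 0.77 (Tap1), with a median of 0.94 against -0.0067 over all genes. Limma called 0 of the 10 at an adjusted p under 0.05, where 1.23% of genes were called higher. In all, 4 had an unadjusted p under 0.05, against 9.65% of all genes in that direction: Tap2 at 1.38 ± 0.44 (adjusted p = 0.101), H2-K1 at 1.13 ± 0.47 (0.192), Tapbp at 0.89 ± 0.37 (0.194) and H2-D1 at 0.88 ± 0.35 (0.177). In the same 4 genes the 3 Sen+PD1 arrays lay above the 3 Sen+IgG arrays, against 9.12% of all genes. Much of this rested on the low replicate 1 of Sen+IgG: without it the median was 0.42 and the largest difference 0.86.

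In resistant tumours the differences of Res+PD1 against Res+IgG were smaller, from 0.24 ± 0.37 (Tapbp) to 1.05 ± 0.83 (Nlrc5), with a median of 0.56 against 0.03. Limma called 0 of the 10 and 0% of all genes, 0 of the 10 had an unadjusted p under 0.05, against 2.45% of all genes (379) in the higher direction. Res+PD1 replicate 3, the highest resistant array for all 10 genes, accounted for most of the median, which was 0.16 without it. The 95% intervals still allowed a rise of 2.87 for Nlrc5 and 1.60 for H2-K1.

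Whether the antibody acted differently in the 2 lines was tested as an interaction. Its estimate, the antibody difference in resistant minus that in parental tumours, was below 0 for all 10 genes, from -0.18 ± 0.63 (Psmb10) to -0.83 ± 0.62 (Tap2), and 0 were called of the 10 and 0% of all genes. None had an unadjusted p under 0.05, against 6.75% of all genes in that direction. Without Sen+IgG replicate 1 the median went from -0.43 to 0.16, so the data fix no direction for this term. The effect of anti-PD-1 in the 2 lines is therefore not shown to differ for these genes.

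The 10 genes followed each other closely from array to array. Over the 12 arrays the Pearson correlation between 2 members lay between 0.916 (Tap2 and Psmb10) and 0.996 (Psmb8 and Psmb9), with a median of 0.961 over 45 pairs. Within the 6 resistant arrays it ran from 0.698 to 0.999, and within the 5 parental arrays other than Sen+IgG replicate 1 from 0.58 to 0.996. These values share arrays, and the between-line difference enters the first. Averaged over the 10 genes, the log2 level was 8.16 on Sen+IgG replicate 1 and 9.91 to 10.75 on the other parental arrays. It was 7.58 to 8.79 on the Res+IgG arrays, 8.30 and 8.23 on Res+PD1 replicates 1 and 2 and 9.51 on replicate 3. Res+IgG replicate 2 was the lowest resistant array for 9 genes, and Sen+PD1 replicate 3 the highest array of all for 8.

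**Figure D3:**
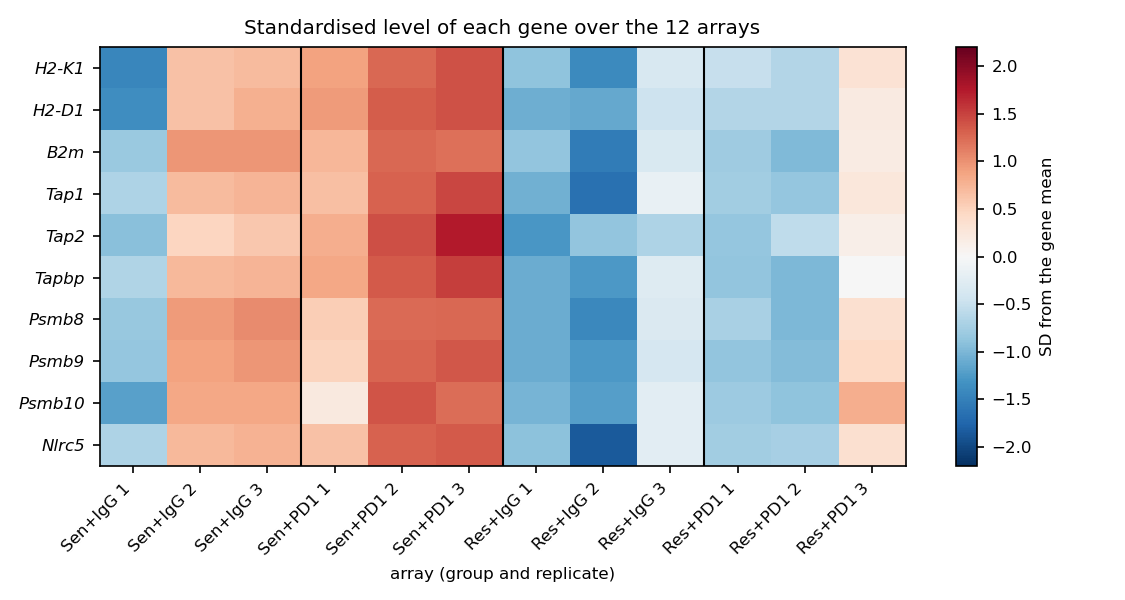
The colour gives each gene's level (rows) on each array (columns, by group and replicate) as SD from that gene's mean over the 12 arrays. Columns are nearly uniform in colour, with Sen+IgG 1 in the colours of the resistant arrays and Res+PD1 3 the highest of the resistant ones.

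Several genes have more than 1 probe set, and most of these agreed. Of the 27 probe sets, 24 passed the filter, and with both antibodies averaged 19 of them fell, where 17% of all probe sets tested were called lower; without Sen+IgG replicate 1 it was 22 of 24 (16.2%). All 4 of H2-K1, both of B2m, both of Tapbp, both of Psmb8 and 5 of the 8 tested of H2-D1 were among the 19. The exceptions besides Psmb10 were 3 H2-D1 probe sets, with differences of -0.34, -0.16 and 0.06, and 1 of Tap1, which varied by only 0.37 over the 12 arrays. Most heavy chain probe sets carry the suffix that marks probes shared by related transcripts, so the split between H2-K1, H2-D1 and other class I genes is uncertain. A probe set assigned to both H2-K1 and H2-D1 had a similar profile, with log2 levels of 8.18, 10.14 and 10.26 (Sen+IgG), 10.39, 10.81 and 10.75 (Sen+PD1), 8.61, 8.21 and 9.21 (Res+IgG) and 9.02, 8.97 and 9.67 (Res+PD1). It was 1 of 3 probe sets assigned to several genes with a member among them, and in the others the lines overlapped. That of H2-Q5 and H2-K1 ran from 4.95 to 5.59 on parental and from 5.20 to 5.38 on resistant arrays. That of H2-D1, H2-Q2 and Gm38417 ran from 4.14 to 4.68 on parental and from 3.80 to 4.24 on resistant arrays. The tumours came from strain 129sv/ev, and the probes' match to its class I alleles was not tested.

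The rest of the class I pathway did not move as one. Of 78 further genes in 8 lists, 61 were tested; the others, Psme2, H2-T23 and most H2-Q genes among them, were not, because no probe set is assigned to them alone or, for H2-Q2, because it did not pass the filter on dim probe sets. Of the 3 constitutive catalytic subunits, which Psmb8, Psmb9 and Psmb10 replace, 2 were higher in resistant than in parental tumours with both antibodies averaged. They were Psmb7, by 0.27 (limma adjusted p = 0.0197), and Psmb6, by 0.26 (0.00377), where 25.2% of all genes were called higher. Psmb5, at 0.12, did not pass (adjusted p = 0.0901). Of the 11 other core proteasome subunits 5 were called higher and 0 lower, led by Psma7 at 0.43 ± 0.068 (limma adjusted p = 0.000623) and Psmb2 at 0.32 ± 0.053 (0.00084). Psma1 rose by 0.32 on its brightest probe set and was lower, at -0.61, on its most variable one. The list medians were 0.26 and 0.11, against -1.44 for the 10 genes. By antibody, 3 of 3 constitutive and 5 of 11 other core subunits were higher in Res+PD1 against Sen+PD1, where 21.6% of all genes were called higher. Without the 2 arrays that stand apart it was 2 of 3 and 5 of 11 (19.7%). In Sen+PD1 against Sen+IgG all 3 and all 11 lay below 0, as did 51.3% of all genes. Psmb7 at -0.57 (limma adjusted p = 0.0314), Psma7 at -0.43 (0.04) and Psma3 at -0.37 (0.0422) were called lower, as were 2.27% of all genes. These calls were lost in 8 (Psmb7), 10 (Psma7) and 12 (Psma3) of 22 alternative settings. Without the 2 arrays that stand apart 0 of 3 and 0 of 11 were called lower (0.484% of all genes). The mean Psmb7 level was 9.29 (Sen+IgG), 8.71 (Sen+PD1), 9.30 (Res+IgG) and 9.24 (Res+PD1). In Res+IgG against Sen+IgG limma called 0 of both lists, with medians of 0.017 and 0.06 against 0.067 over all genes and 8.93% of all genes called higher; Psmb6 of the 3 and Psmb2 of the 11 had an unadjusted p under 0.05. Without the 2 arrays that stand apart 1 of 3 and 3 of 11 rose with both antibodies averaged, and Psmb7 was at 0.23 (adjusted p = 0.0676). Among 4 activators and maturation factors, Psme1, a subunit of the interferon-inducible activator, fell by 0.65 (adjusted p = 0.0177) and Psme3, of the nuclear activator, rose by 0.60 (adjusted p = 7.75e-05).

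Peptide trimming and loading genes were mixed. Of 7 trimming peptidases 2 fell and 2 rose, beside 15% of all genes called lower and 25.2% called higher, with Lap3, an aminopeptidase induced by interferon gamma, at -0.41 (adjusted p = 0.019) and Nrd1 at 0.28 (0.004). Npepps was at -0.24 (adjusted p = 0.0459) and lost its call in 8 of the 12 omissions of an array. Of 8 loading and folding genes 1 fell, Tapbpl, the tapasin-related peptide editor, by 1.29 ± 0.25 (adjusted p = 0.00224), and 1 rose, Sec61b of the translocon, by 0.53 (0.00032). The general chaperones Hspa5 at 0.11 and Calr at 0.098 did not pass. Of 7 other class I genes tested, none passed with both antibodies averaged in limma, and H2-M3 alone had an unadjusted p under 0.05; without the 2 arrays that stand apart H2-M3 was lower, at -0.64 (adjusted p = 0.0215), and H2-Q10 higher, at 0.20 (0.0441). H2-M3, which presents formylated peptides and whose promoter holds the same pair and core as those of H2-K1 and H2-D1, was lower by 0.88 under anti-PD-1 (adjusted p = 0.0478), a call lost on leaving out any of 9 arrays.

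Among 14 regulators of class I transcription 8 fell and 4 rose, where 15% of all genes were called lower and 25.2% higher. Rfx5, the DNA-binding subunit of the X-box complex that Nlrc5 joins, fell by 1.02 ± 0.15 (adjusted p = 0.000437), while its partner Rfxap rose by 0.35 ± 0.057 (0.000809). Rela, the NF-kappaB subunit, fell by 0.34 ± 0.054 (adjusted p = 0.000591), and Creb1, which binds X2 boxes, rose by 0.30 ± 0.058 (0.00203). Of 7 genes of the interferon gamma signal 5 fell and 1 rose. Ifng itself was called lower (adjusted p = 0.00614), with 4.24 ± 1.00 (SD, Sen+IgG) and 5.19 ± 0.85 (Sen+PD1) against 3.04 ± 0.16 (Res+IgG) and 3.53 ± 0.25 (Res+PD1). All 3 Res+IgG arrays, from 2.86 to 3.17, lay below the dim limit, so no size is given for its difference. Socs1, the inhibitor that the signal induces, fell by 1.05 ± 0.25 (adjusted p = 0.00735), the kinase gene Jak2 fell by 0.39 ± 0.061 (0.000557) and Jak1 rose by 0.57 ± 0.08 (0.000312). Without Sen+IgG replicate 1 both lists gave the same counts. Without the 2 arrays that stand apart the regulators did too, and the interferon gamma list had 4 lower and 2 higher, with Ifngr1 at -0.26 (adjusted p = 0.0517) and Ifngr2 at 0.21 (0.0332).

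**Figure D4:**
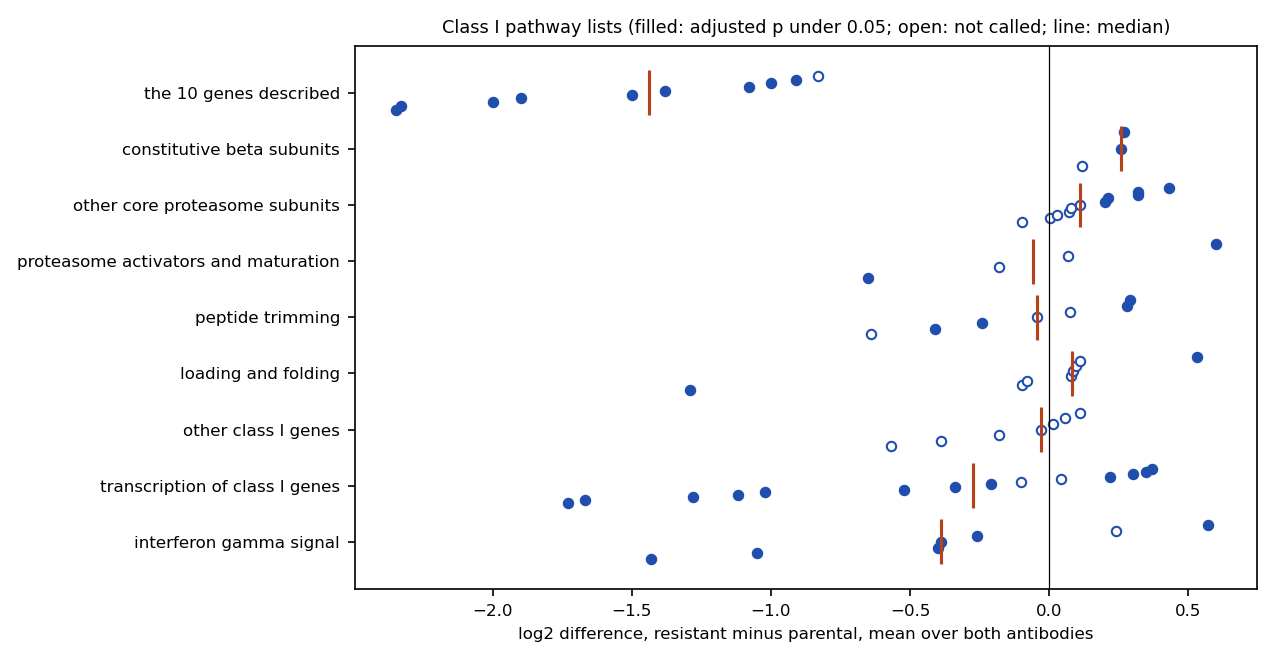
Each point is the log2 difference of 1 gene between resistant and parental tumours with both antibodies averaged (horizontal axis), by list (vertical axis), filled where the adjusted p was under 0.05, and the line is the list median. The 10 genes lie between -2.35 and -0.83, while the constitutive and other core proteasome subunits lie around or above 0.

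The genes most like the 10 were named by their correlation with the members' mean standardised level over the 12 arrays. The first 10, passing over predicted genes, were Parp12 (r = 0.988), Parp9 (0.987), Parp14 (0.985), Irgm2 (0.984), Ms4a4b (0.983), Ifi47 (0.983), Oasl2 (0.981), Irf1 (0.981), Gbp7 (0.98) and Oas1a (0.978). Irf1, a transcription factor, is also in the list of regulators above. Each member's own correlation with the mean of the other 9 ran from 0.955 (Tap2) to 0.992 (Psmb9), and 44 of 15483 other genes exceeded the lowest of these. All 10 of these genes were lower in resistant tumours with both antibodies averaged, from -0.97 (Parp9, adjusted p = 0.0172) to -2.31 (Ms4a4b, adjusted p = 0.0108), a direction that likeness to the members fixes.

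Markers of leukocytes were also lower in resistant tumours under anti-PD-1. The mean log2 level of the 4 pan-leukocyte markers was 8.39 ± 0.45 (SD, n = 3) in Sen+IgG, 9.02 ± 0.57 in Sen+PD1, 8.06 ± 0.25 in Res+IgG and 7.84 ± 0.42 in Res+PD1. Of the 4, 3 fell in Res+PD1 against Sen+PD1, where 11.9% of all genes were called lower. They were Laptm5 by 1.72 (limma adjusted p = 0.000658), Ptprc by 1.35 (0.0241) and Coro1a by 1.18 (0.0288). The last 2 lost the call on leaving out any of the 4 arrays that reduced the class I genes to 2. Without the 2 arrays that stand apart 1 of the 4 markers passed. In Res+IgG against Sen+IgG limma called 0 of the 4, and 0 had an unadjusted p under 0.05; without the 2 arrays 1 passed. Within the resistant line the leukocyte list lay lower and the class I genes higher with anti-PD-1 than with IgG. Both differences were within the spread of the arrays, with 0 genes called. Res+PD1 replicate 3, the highest resistant array for the class I genes, had a leukocyte list of 8.30, against 7.75 and 7.47 on Res+PD1 replicates 1 and 2. On Sen+IgG replicate 1 the leukocyte list averaged 7.87, within the range of the resistant arrays, from 7.47 to 8.34. T cell markers averaged 4.62 ± 0.44 and 4.91 ± 0.50 in the parental groups and 4.20 ± 0.066 and 4.19 ± 0.16 in the resistant ones. With both antibodies averaged 3 of 7 tested fell, where 15% of all genes were called lower. It was 6 of 7 without Sen+IgG replicate 1 (14.5%) and 3 of 7 without the 2 arrays that stand apart (15.9%). In Res+PD1 against Sen+PD1 2 of 7 fell, and in Res+IgG against Sen+IgG 0 of 7. Trat1 did not pass the dim filter. NK cell markers averaged 4.57 ± 0.51 and 5.00 ± 0.50 against 4.01 ± 0.11 and 4.24 ± 0.35. With both antibodies averaged 2 of 4 fell, and in Res+PD1 against Sen+PD1 1 of 4 did. Without Sen+IgG replicate 1 these were 3 of 4 and 2 of 4. Macrophage markers, from 8.91 to 9.31 in group mean, and B cell markers, from 3.63 to 3.83, had no marker called lower with both antibodies averaged. Of 7 macrophage markers 1 was called higher there, and 1 lower in Res+PD1 against Sen+PD1. Of 3 dendritic cell markers 1 was called lower in each of the 3 line comparisons. Of 4 neutrophil markers 1 was called lower in Res+PD1 against Sen+PD1 and 0 with both antibodies averaged. Epithelial markers averaged 11.35 on Sen+IgG replicate 1, their highest array, and 10.46 to 10.90 in group mean. Of 6, 2 were called lower and 1 higher with both antibodies averaged. In Res+IgG against Sen+IgG 2 were lower, and in Res+PD1 against Sen+PD1 1 was lower and 1 higher. Without the 2 arrays that stand apart 4 were lower and 1 higher with both antibodies averaged. The part of these cell types in the class I differences was not tested.

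**Figure D5:**
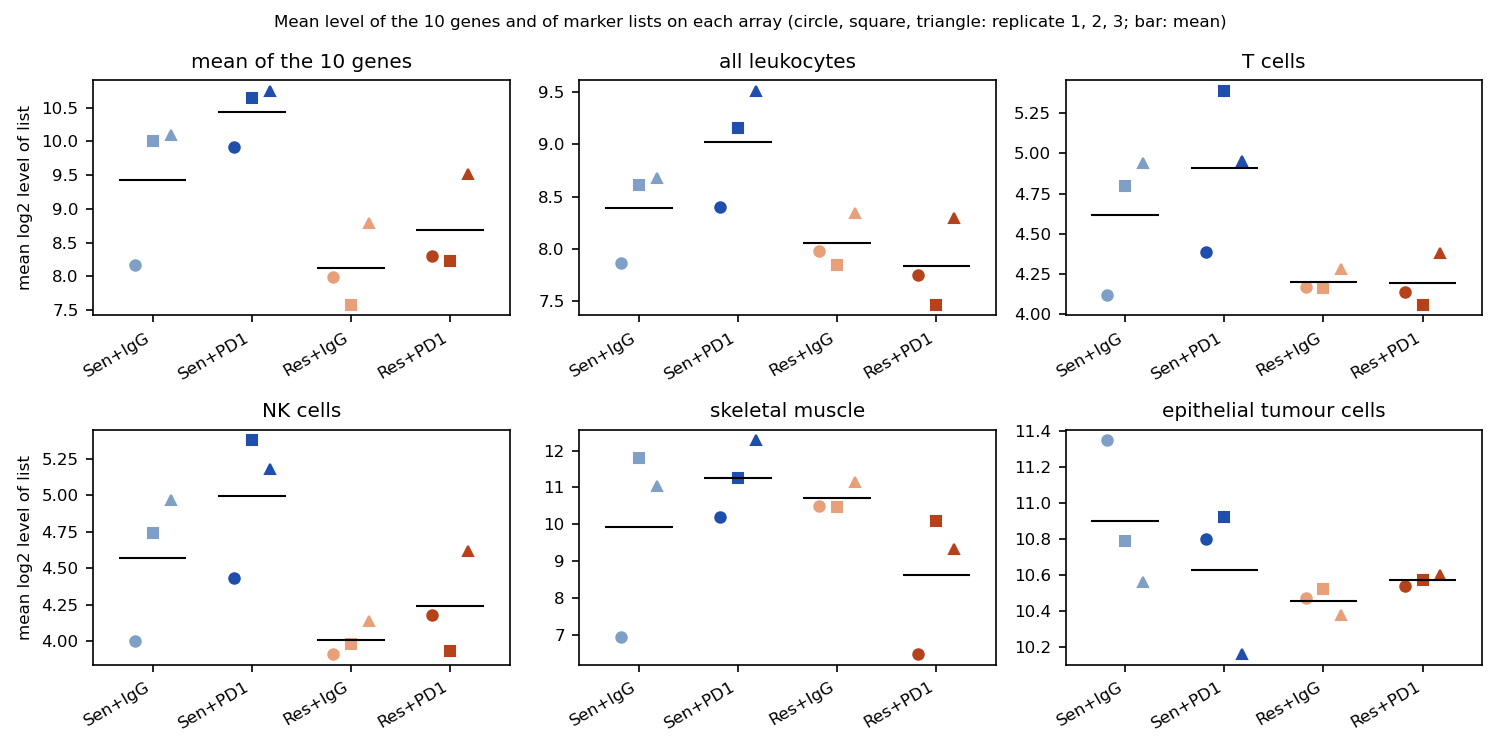
Points give the mean log2 level of the 10 genes or of a marker list (vertical axis) on each array, by group (horizontal axis), and bars are means of 3 arrays. The panels of leukocyte, T cell and NK cell markers place Sen+IgG replicate 1 with the resistant arrays, as the panel of the 10 genes does, while the epithelial panel has it highest.

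The signal difference between the 3' and 5' probe sets of the Gapdh control, a sign of RNA integrity, was 0.26 ± 0.096 (SD, n = 6 arrays) in parental and 0.035 ± 0.052 in resistant tumours, and that of the actin control 0.75 ± 0.11 and 0.48 ± 0.08. These values also moved with the line, and their part in the differences was not tested.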

How the data were processed

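Total RNA of whole tumours was extracted with Triazol and hybridised as biotin-labelled cRNA to Affymetrix mouse genome arrays (labels' protocols). The deposited table holds log2 values, from 1.62 to 13.88, of 45101 probe sets on 12 arrays; the authors' summary and normalization steps are not stated in any source used, and the log2 scale was read from their range. Of the probe sets, 64 were controls and left out, 34945 had 1 gene in the platform annotation, 932 several and 9160 none; 34741 were matched by gene number to the RefSeq table of GRCm38.p6, used for names and neighbours. A gene was represented by its brightest probe set with 1 gene. A level above 3.32 (the 25th percentile of the table) on at least 3 arrays was required, leaving 15493 of 18193 genes, and 28634 probe sets in the fit of all probe sets.

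Tests used limma (3.58.1, under R 4.3.3) on all 12 arrays at once, with a mean for each group, 8 residual degrees of freedom and a prior of 2.98, two-sided, and with Benjamini-Hochberg adjustment over all genes within each of 6 comparisons; an adjusted p under 0.05 was called. The 2 comparisons between lines share no array, and each antibody comparison shares arrays with both. The fit was also run on simulated data with independent normal noise. These held no outlying array and no correlation between genes, so that run does not bear on the calls given here. The members and lists were chosen with earlier results of these data known. Named genes were the 10 members, up to 4 genes of each pathway list with the smallest p in the comparison described, and the 10 genes most correlated with the members; the leukocyte markers named were chosen after their values were seen. Array precision is limited by 3 arrays a group. Alternatives changed the filter, the probe set, the scaling, the weights, the variance prior, the arrays in the fit and the block.

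Replicate numbers 1 to 3 are shared by the groups. The correlation of same-numbered arrays' deviations from their group means ran from -0.208 to 0.636. Between Res+IgG and Res+PD1 all 3 exceeded 0.1 (0.113, 0.123 and 0.174), which does not establish that the numbers are pairs. The differences given above for that comparison come from the fit without a block. The replicate block also called 0 members and 0 genes there. All 3 between Sen+IgG and Res+PD1 also exceeded 0.1 (0.411, 0.181 and 0.438), though these groups are not compared directly. Between every other 2 groups at least 1 of the 3 was below 0.1.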

Additional observations from a re-analysis of the deposited data

Results flagged for a closer look

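Among the 6 parental arrays, Sen+IgG replicate 1 stood apart as the lowest in 7 of the 10 genes. The measure is its gap to the next array as a share of the range of the 6, and values above 0.625 were taken as apart. Chance gives this in about 1 in 20 groups of 6 values from 1 normal population. The 6 arrays here were 3 with IgG and 3 with anti-PD-1, so that rate need not hold for them. For H2-K1 the share was 0.731, with a log2 level of 10.35 against 12.28 on the next array, and for H2-D1 it was 0.724 (10.69 against 12.16). B2m had 0.743 (11.35 against 12.42), Psmb8 0.653 (7.54 against 9.50) and Nlrc5 0.647 (5.59 against 7.84). Tapbp had 0.63 (9.05 against 10.31), and Tap1, at the limit, 0.625 (6.65 against 8.87). The 7 genes are correlated, so these are not 7 separate observations. The same array was the lowest of the parental arrays in 9 of 14 marker lists. It had 6.94 for skeletal muscle, against 10.21 to 12.28 on the others, 7.87 for leukocytes, 4.12 for T cells, 4.00 for NK cells, 4.38 for dendritic cells, 5.05 for endothelial cells, 8.53 for fibroblasts, 3.91 for adipocytes and 3.37 for red blood cells, and the highest epithelial list, at 11.35. The part of tumour make-up in its low class I levels was not tested.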

How the results depend on the processing

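The direction of all 10 members held under every alternative run for the 3 line comparisons. The number of members called moved as follows. In Res+IgG against Sen+IgG it was 0 (7.31% of all genes called lower), and 10 with array weights (12.5%), 7 with the replicate block (8.35%), 9 without the 2 arrays that stand apart (8.24%), and 0 to 9 when each array was left out in turn (4.09% to 9.52%). In Res+PD1 against Sen+PD1 it was 9 (11.9%), and 5 with a trended and robust variance prior (11.6%). It was 8 without the 2 arrays that stand apart (11.8%), and 2 to 9 with single arrays left out (8.2% to 12.8%). In Sen+PD1 against Sen+IgG it was 0, and 1 (Tap2, 1.38, adjusted p = 0.0219) with the replicate block, and 0 with arrays left out. The replicate block also brought Psmb10 past the threshold in Res+PD1 against Sen+PD1 and in the mean over antibodies. In those comparisons it changed no other member's call.

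Over all genes, array weights called 5152 in Res+IgG against Sen+IgG (2517 without weights), 918 in Sen+PD1 against Sen+IgG (542 without), 1 in Res+PD1 against Res+IgG and 121 in the interaction (0 without in both). Res+PD1 against Res+IgG also had 1 with arrays centred on their medians and 1 with the trended prior. The interaction had 3 with the replicate block. Sen+PD1 against Sen+IgG had 100 without the 2 arrays that stand apart and 0 when only its 2 groups were fitted. Leaving out arrays in turn gave 1273 to 3483 in Res+IgG against Sen+IgG, 9 to 711 in Sen+PD1 against Sen+IgG, 0 to 1 in Res+PD1 against Res+IgG and 0 to 78 in the interaction. The causes were not tested.

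Signs turned where estimates were small. With array weights the interaction was 0.058 for B2m, 0.092 for Tap1, 0.54 for Psmb8, 0.38 for Psmb9, 0.22 for Psmb10 and 0.19 for Nlrc5. Without the 2 arrays that stand apart it was 0.18 for H2-K1, 0.073 for H2-D1, 0.25 for B2m, 0.39 for Tap1, 0.84 for Psmb8, 0.68 for Psmb9, 0.43 for Psmb10 and 0.67 for Nlrc5. In the same setting Sen+PD1 against Sen+IgG was -0.13 for Psmb8, -0.07 for Psmb9 and -0.04 for Psmb10. With each array left out in turn the interaction ran from -0.91 to 0.082 for H2-K1, -0.78 to 0.0067 for H2-D1, -0.46 to 0.20 for B2m, -1.24 to 0.12 for Tap1, -0.77 to 0.66 for Psmb8, -0.99 to 0.46 for Psmb9, -0.58 to 0.33 for Psmb10 and -1.10 to 0.44 for Nlrc5, the upper ends without Sen+IgG replicate 1. Res+PD1 against Res+IgG ran from -0.048 to 0.51 for Tapbp, -0.01 to 0.98 for Psmb9 and -0.012 to 0.61 for Psmb10, the lower ends without Res+PD1 replicate 3. Psma1 was -0.68 in Res+PD1 against Sen+PD1 and -0.61 in the mean over antibodies on its most variable probe set, and -0.11 and -0.21 on the mean of its probe sets; Psma3, at -0.37 in Sen+PD1 against Sen+IgG, was 0.21 on its most variable one.

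With 3 arrays a group the standard error of a difference was 0.34 to 0.83 for the members, against a median of 0.117 over all genes, and it was widest for Nlrc5 and Tap1. The labels do not tie arrays to mice, so technical and animal spread cannot be told apart.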
